A study of Mus musculus with 4 samples.

Results

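The core genes of Hedgehog signalling were examined in the urogenital sinus (UGS), the embryonic tissue from which the prostate and urethra form. The group comprises the ligands *Shh*, *Ihh* and *Dhh*, the receptor *Ptch1*, the signal transducer *Smo*, the transcription factors *Gli1*, *Gli2* and *Gli3*, and the ligand-binding inhibitor *Hhip*. They were chosen by name, and all 9 were found among the 25819 rows of the expression matrix. The data are RNA-Seq of whole UGS of male mouse embryos on a B6C3-F1 hybrid background, either wild type or *Tbx18Gfp/Gfp*, at E16.5 and E18.5 (E for embryonic day). *Tbx18Gfp/Gfp* embryos carry a GFP knock-in on both copies of the T-box transcription factor gene *Tbx18* and are null mutants, and their wild type controls were littermates. No hormone or other treatment was given to any group as far as the sources state, and the mutation is present in every cell of the embryo rather than in the UGS alone. Each of the 4 combinations of genotype and stage was measured as 1 library of RNA pooled from 3 embryos. There is therefore no spread between replicates to set a difference against, and no test, SD or p-value is given for any value below. Intervals cover the error of counting reads only.

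In the Hedgehog pathway, a secreted ligand binds Patched receptors and so relieves their hold on Smoothened (the product of *Smo*), which then acts through the primary cilium to convert GLI proteins into activators. *Gli2* and *Gli3* carry the first response, with *Gli3* acting largely as a repressor when ligand is absent. *Ptch1*, *Gli1* and *Hhip* are themselves switched on by the signal and are widely read as its output, and *Ptch1* and *Hhip* also bind ligand and so limit it. In the UGS, *Shh* is made by the epithelium and is received by the surrounding mesenchyme, which in turn supports the growth of prostate buds. Whole UGS holds both tissues, so in these bulk libraries fewer cells of a type and less RNA per cell cannot be told apart.

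Expression is given in FPKM (fragments per kilobase of transcript, scaled to the number of mapped reads), which is scaled for transcript length and so allows levels of different genes to be compared. The depth of the libraries, estimated from genes with a single read, ranged from 29.0 M mapped reads in E18.5 wild type to 64.0 M in E16.5 wild type, where M stands for mega. That library stood apart from the others. Between it and each of the other 3 libraries, 2657 to 2965 genes differed at least 2-fold, against 244 to 371 genes between any pair of the other 3. For this reason the E18.5 results are given both as deposited and without that library, by setting E18.5 *Tbx18Gfp/Gfp* against E16.5 wild type, a comparison that mixes genotype with stage. *Tbx18* itself measured 3.47 FPKM in E16.5 wild type, 2.50 in E16.5 mutant, 3.16 in E18.5 wild type and 2.93 in E18.5 mutant UGS. It was thus not lost from the mutant libraries, and since 1 value covers the whole gene, it does not check the genotype labels. Markers of both tissues were present in every library, with all 17 epithelial and all 12 mesenchymal genes of the lists at 1 FPKM or more. The summed level of the epithelial markers lay between 820 and 1046 FPKM and that of the mesenchymal markers between 3714 and 4677 FPKM.

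All steps of the pathway were represented in the UGS, from ligand to inhibitor. *Smo* was the most abundant of the 9 genes in every library, and *Gli1*, *Ptch1* and *Shh* came next. *Hhip*, *Gli3* and *Gli2* formed a lower group at 6.57 to 11.4 FPKM, and *Dhh* and *Ihh* were close to 1 FPKM or below it. This order was the same in E16.5 wild type and E18.5 mutant UGS. In E16.5 mutant UGS *Gli3* stood above *Hhip*, at 9.99 against 9.08 FPKM. In E18.5 wild type *Gli1* stood below *Ptch1* and *Shh*.

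**Figure D1:**
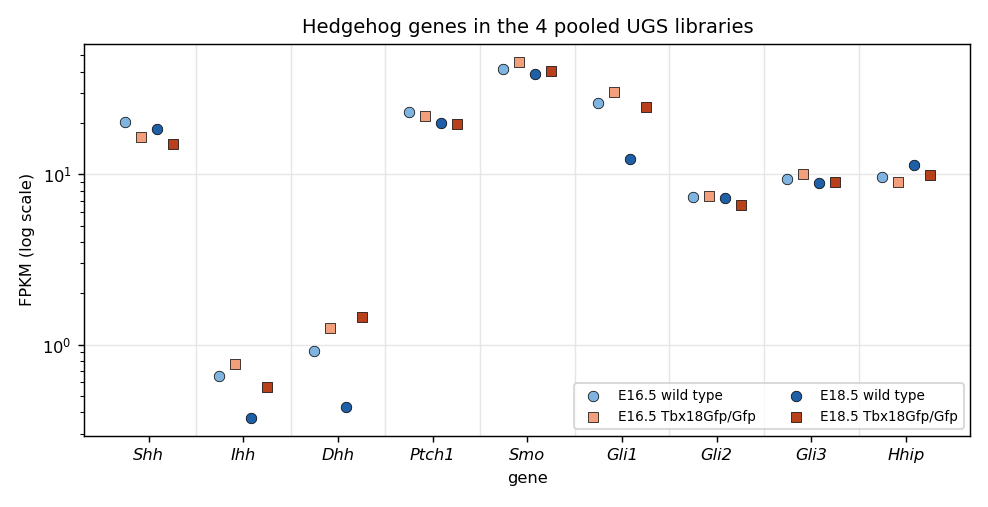
FPKM (log scale) of the 9 Hedgehog genes in each of the 4 pooled libraries, with circles for wild type, squares for Tbx18Gfp/Gfp, light colours for E16.5 and dark colours for E18.5. The 4 points of most genes lie close together, while Gli1, Dhh and Ihh are lowest in E18.5 wild type, at 12.4, 0.432 and 0.371 FPKM.

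Among the ligands, *Shh*, the main Hedgehog of endodermal epithelia, made up most of the RNA. Its level was 20.2 FPKM in E16.5 wild type and 16.51 in E16.5 mutant UGS, and 18.4 in E18.5 wild type and 15.0 in E18.5 mutant UGS. Both mutant libraries were thus below both wild type libraries. The log2 ratio of mutant to wild type was -0.29 at E16.5, with a counting interval of -0.37 to -0.22, and -0.29 at E18.5, with a counting interval of -0.39 to -0.19. Neither value reached a 1.5-fold difference. E18.5 mutant UGS set against E16.5 wild type gave -0.43. *Shh* accounted for 88.2% to 95.8% of the summed ligand FPKM, with the lower shares of 89.1% and 88.2% in the 2 mutant libraries. Some epithelial markers moved with it. At E16.5, 13 of the 17 epithelial genes were lower in the mutant library, with a median log2 ratio of -0.21. At E18.5, 12 of the 17 were higher, with a median of 0.11. Per unit of E-cadherin RNA (*Cdh1*), *Shh* was 0.569 in E16.5 wild type, 0.599 in E16.5 mutant, 0.499 in E18.5 wild type and 0.646 in E18.5 mutant UGS, so against this marker the mutant libraries were the higher ones. *Cdh1* itself was lower in mutant UGS, with log2 ratios of -0.37 at E16.5 and -0.66 at E18.5. Per unit of *Krt19*, a keratin of simple epithelium, *Shh* was 0.113, 0.107, 0.137 and 0.102 in the same order. Per unit of the epithelial marker *Epcam*, it was 0.341, 0.255, 0.380 and 0.306. Against *Krt19* and *Epcam* the mutant library was thus the lower one at each stage. The part of epithelial content in the level of *Shh* was not tested.

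*Dhh*, known from Sertoli cells, Schwann cells and endothelium, was near the lower limit of the measurement. It measured 0.922 FPKM in E16.5 wild type and 1.25 in E16.5 mutant UGS, on about 238 and 281 reads. At E18.5 it measured 0.432 FPKM in wild type and 1.44 in mutant UGS, on about 51 and 305 reads. E18.5 wild type was the lowest library, and both mutant libraries were above both wild type libraries. The ratio of mutant to wild type was 1.36-fold at E16.5 and 3.34-fold at E18.5, with respective counting intervals of 1.14 to 1.62 and 2.46 to 4.55. Without the E18.5 wild type library, E18.5 mutant against E16.5 wild type gave 1.57-fold, with a counting interval of 1.32 to 1.86. The summed level of 8 Schwann cell markers was also lowest in E18.5 wild type, at 40.6 FPKM against 51.5 to 55.8 FPKM in the other libraries. Single Schwann cell markers were divided: 6 of the 8 were lower in mutant UGS at E16.5, and 5 were higher and 3 lower at E18.5. In E16.5 wild type, E16.5 mutant, E18.5 wild type and E18.5 mutant UGS, 8 endothelial markers summed to 127.2, 145.6, 127.1 and 138.8 FPKM. The 7 Sertoli cell markers summed to 63.7, 66.3, 65.4 and 49.8 FPKM in the same order, lowest in E18.5 mutant UGS, where *Dhh* was highest. In each library 3 of them were at 1 FPKM or more, and *Fshr* was at 0 in all 4 libraries. The part of these cell types in the level of *Dhh* was not tested.

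*Ihh*, the Hedgehog of growing cartilage and of the gut, measured 0.652 FPKM in E16.5 wild type, 0.773 in E16.5 mutant, 0.371 in E18.5 wild type and 0.564 in E18.5 mutant UGS, on about 94, 97, 24 and 67 reads. It stayed below 1 FPKM in every library and so was the only one of the 9 genes to fail the minimum of 1 FPKM in either library of a genotype comparison. Its log2 ratio of mutant to wild type was 0.24 at E16.5, with a counting interval of -0.18 to 0.67, and 0.61 at E18.5, with a counting interval of -0.063 to 1.37. At this depth a difference in *Ihh* between genotypes was not detectable at either stage. The summed level of 11 cartilage markers was lowest in E18.5 wild type as well, at 29.8 FPKM against 54.7 to 64.5 FPKM elsewhere. Not every marker followed the sum. *Col9a2*, the most abundant, was lowest in that library at 13.6 FPKM, while *Runx2* and *Hapln1* were highest there, at 1.87 and 5.84 FPKM. The hindgut marker *Cdx2* was at 0 in all 4 libraries. The part of cartilage in the level of *Ihh* was not tested.

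As deposited, the receiving components varied little between the libraries. *Ptch1*, the ligand receptor and a target of the signal, measured 23.2 FPKM in E16.5 wild type, 22.0 in E16.5 mutant, 20.0 in E18.5 wild type and 19.7 in E18.5 mutant UGS. Its log2 ratio was -0.073 for E16.5 and -0.026 for E18.5, and -0.24 when the E18.5 mutant library was set against E16.5 wild type. Levels were lower at E18.5 than at E16.5 in both genotypes, and the genotypes of a stage differed less than the stages. *Smo*, the transducer, measured 41.8, 45.9, 38.9 and 40.3 FPKM in the same order, with log2 ratios of 0.13 at E16.5 and 0.053 at E18.5. The ratio of *Smo* to *Ptch1* within a library, which no scaling factor between libraries changes, was 1.81, 2.08, 1.94 and 2.05. A trend on base composition can change it. With the trend on GC content and length subtracted, described below, the E18.5 log2 ratio was -0.59 for *Smo* and -0.094 for *Ptch1*.

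*Hhip*, the membrane-anchored decoy that binds all 3 ligands, measured 9.63 FPKM in E16.5 wild type, 9.08 in E16.5 mutant, 11.4 in E18.5 wild type and 9.97 in E18.5 mutant UGS. It was the only one of the 9 genes with its highest level in E18.5 wild type. The log2 ratio of mutant to wild type was -0.085 for E16.5 and -0.19 for E18.5, and 0.051 for E18.5 mutant against E16.5 wild type. Per unit of *Ptch1*, *Hhip* was 0.416 and 0.412 in E16.5 wild type and mutant UGS and 0.568 and 0.507 at E18.5, so this ratio was higher at the later stage in both genotypes.

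Of the GLI factors, *Gli2*, the main activator, measured 7.40 FPKM in E16.5 wild type, 7.45 in E16.5 mutant, 7.26 in E18.5 wild type and 6.57 in E18.5 mutant UGS. *Gli3*, the main repressor, measured 9.40, 9.99, 8.94 and 9.01 FPKM. The log2 ratios of both genes lay between -0.14 and 0.087 at the 2 stages. *Gli1*, an activator that depends on the signal for its own expression, behaved differently. It measured 26.4 FPKM in E16.5 wild type, 30.3 in E16.5 mutant, 12.4 in E18.5 wild type and 25.01 in E18.5 mutant UGS, on about 6481, 6495, 1382 and 5040 reads. Only the E18.5 wild type library was low, and the other 3 lay between 25.01 and 30.3 FPKM. *Gli1* was thus 1.15-fold higher in mutant UGS at E16.5 and 2.02-fold higher at E18.5, with a counting interval of 1.90 to 2.15 at E18.5. When the E18.5 mutant library was set against E16.5 wild type instead, the log2 ratio was -0.076. The 2.02-fold difference therefore rested on the E18.5 wild type library.

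*Gli1* supplied 61.1%, 63.5% and 61.6% of the summed GLI RNA in E16.5 wild type, E16.5 mutant and E18.5 mutant UGS, but 43.3% in E18.5 wild type. The ratio of *Gli1* to *Ptch1*, 2 targets of the same signal, was 1.14, 1.38 and 1.27 in those 3 libraries and 0.619 in E18.5 wild type. As deposited, the 3 readouts of the pathway therefore did not move together in that library. *Gli1* was at its lowest there, *Hhip* at its highest and *Ptch1* between those of the other libraries. From E16.5 to E18.5 in wild type UGS, the log2 ratios were -1.09 for *Gli1*, 0.24 for *Hhip* and -0.21 for *Ptch1*. With a smooth trend on GC content and length of the transcript subtracted, described below, they were -0.27, 0.061 and -0.042.

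**Figure D2:**
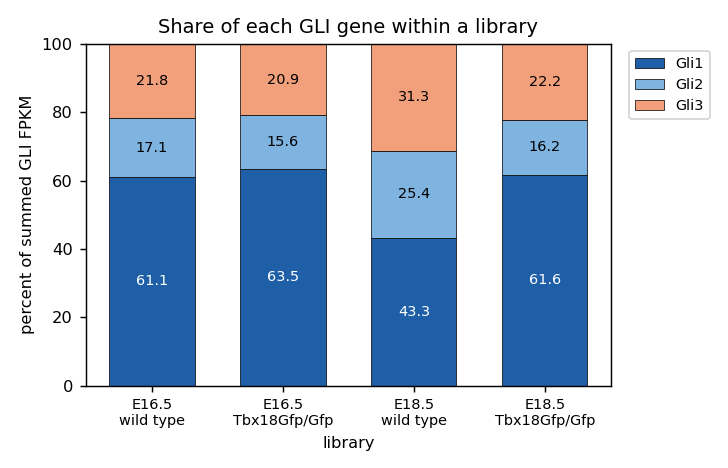
Stacked bars of the percent of summed GLI FPKM contributed by Gli1, Gli2 and Gli3 in each pooled library. Gli1 makes up 61.1% to 63.5% in 3 libraries and 43.3% in E18.5 wild type.

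Across the group, 8 of the 9 genes reached 1 FPKM in either library of a genotype comparison. *Dhh* did so only through the mutant libraries, with 0.922 FPKM in E16.5 wild type and 0.432 in E18.5 wild type. Its place in the counts below thus depended on its being higher in mutant UGS. At E16.5 none of these 8 differed 1.5-fold between genotypes, beside 4.15% of the 14761 genes that passed the same minimum. Their log2 ratios ran from -0.29 for *Shh* to 0.44 for *Dhh*, with a median of 0.049 against 0.012 for all genes. At E18.5 *Gli1* and *Dhh* differed at least 2-fold, both higher in mutant UGS, beside 15.1% of 14733 genes, and no other member differed 1.5-fold, beside 40.8%. The median log2 ratio of the 8 genes was -0.0072 against 0.31 for all genes. Without the E18.5 wild type library, *Dhh* alone exceeded 1.5-fold, beside 6.47% of genes, and the median was -0.069 against -0.042 for all genes.

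**Figure D3:**
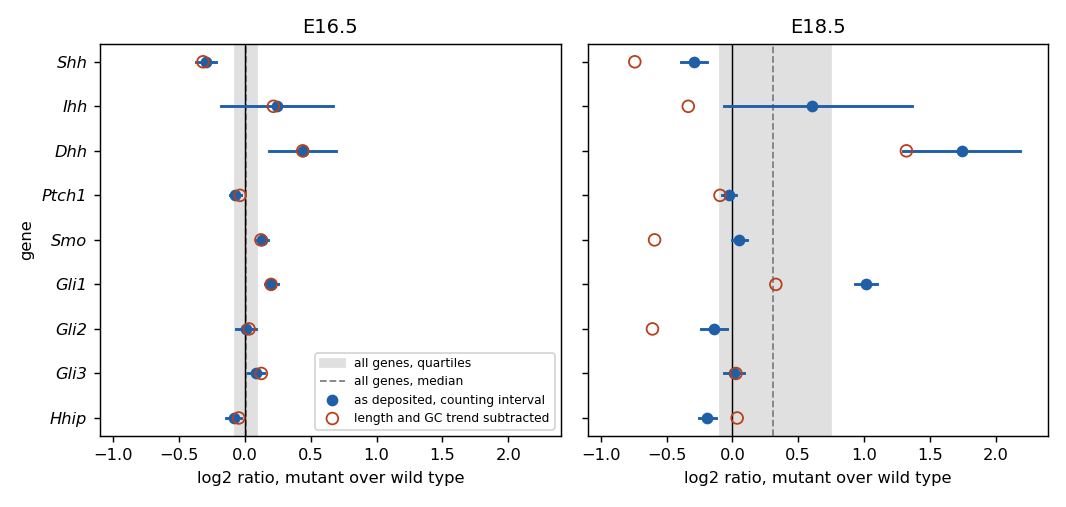
Log2 ratio of Tbx18Gfp/Gfp to wild type FPKM for each Hedgehog gene at E16.5 (left) and E18.5 (right). Filled points are the deposited values with 95% counting intervals, open circles are values after the trend on length and GC was subtracted, the grey band spans the quartiles of all genes and the dashed line marks their median. At E16.5 both kinds of point nearly coincide, and at E18.5 the trend moves Gli1 from 1.01 to 0.33 and Shh from -0.29 to -0.74.

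The E18.5 ratio depended on base composition across the transcriptome. In 10 bins of genes by GC content of the transcript, the median log2 ratio at E18.5 went from -0.063 in the lowest bin to 0.82 in the highest, whereas at E16.5 it stayed between 0.0058 and 0.024. The Hedgehog genes span much of this range, from 41.2% GC for *Hhip* and 48.4% for *Gli3* to 59.0% for *Gli1* and 62.3% for *Ihh*. Stretches of 90 bases from the middle of the coding sequence are given for *Gli1*, which is GC-rich, and for *Gli3* and *Hhip*, which are less so. They are taken from the longest protein-coding transcripts of GENCODE M21 on GRCm38, run 5′ to 3′ on the coding strand, and have G and C in capitals. The 3 genes were picked after their values were seen.
*Gli1*, coding bases 1621 to 1710: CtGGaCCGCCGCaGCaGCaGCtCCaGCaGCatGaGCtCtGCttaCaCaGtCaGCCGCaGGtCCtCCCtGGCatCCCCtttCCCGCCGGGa
*Gli3*, coding bases 2329 to 2418: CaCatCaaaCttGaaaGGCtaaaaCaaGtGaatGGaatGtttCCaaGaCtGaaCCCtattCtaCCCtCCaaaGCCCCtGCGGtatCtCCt
*Hhip*, coding bases 1006 to 1095: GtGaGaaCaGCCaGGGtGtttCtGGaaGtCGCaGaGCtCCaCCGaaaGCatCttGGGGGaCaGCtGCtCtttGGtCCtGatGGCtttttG
G and C make up 66.7% of the stretch of *Gli1*, 44.4% of that of *Gli3* and 54.4% of that of *Hhip*. The stretches of *Gli3* and *Hhip* thus stand in the reverse of their order by whole transcript. G and C make up 59.1% of the whole coding sequence of *Gli1*, 54.0% of that of *Gli3* and 50.4% of that of *Hhip*.

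Read against genes of like GC content, the order of the members at E18.5 changed. *Gli1*, at 1.01, lay between the median of 0.82 and the upper quartile of 1.22 of the 1301 genes in its bin, which is the richest in GC. *Dhh*, at 1.74, lay above the upper quartile of 0.83 of the bin of its GC content. The bins, and the smooth trend below, were formed only from genes at 1 FPKM or more in both libraries. *Dhh* and *Ihh*, at 0.432 and 0.371 FPKM in E18.5 wild type, were thus set against genes of higher level and were not among them. *Smo* and *Gli2*, at 0.05 and -0.14, both lay below the lower quartile of 0.23 of their bin, and *Shh*, at -0.29, lay below the lower quartile of 0.083 of its bin. *Ptch1*, at -0.026, lay just below the lower quartile of -0.017 of its bin. *Gli3*, *Hhip* and *Ihh* lay within the quartiles of their bins but below the medians. When a smooth trend on GC content and length of the transcript was removed, *Dhh* was higher in mutant UGS (1.32), and *Shh* (-0.74), *Gli2* (-0.61) and *Smo* (-0.59) were at least 1.5-fold lower, while *Gli1* (0.33) no longer reached 1.5-fold. By this scaling 4 of the 8 genes exceeded 1.5-fold, beside 27.8% of 13818 genes. At E16.5 the same subtraction gave 0 of 8, beside 4.04%. Without the E18.5 wild type library the deposited values of *Smo* and *Gli2* gave -0.052 and -0.17. What made the E18.5 wild type library follow GC content was not tested.

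**Figure D4:**
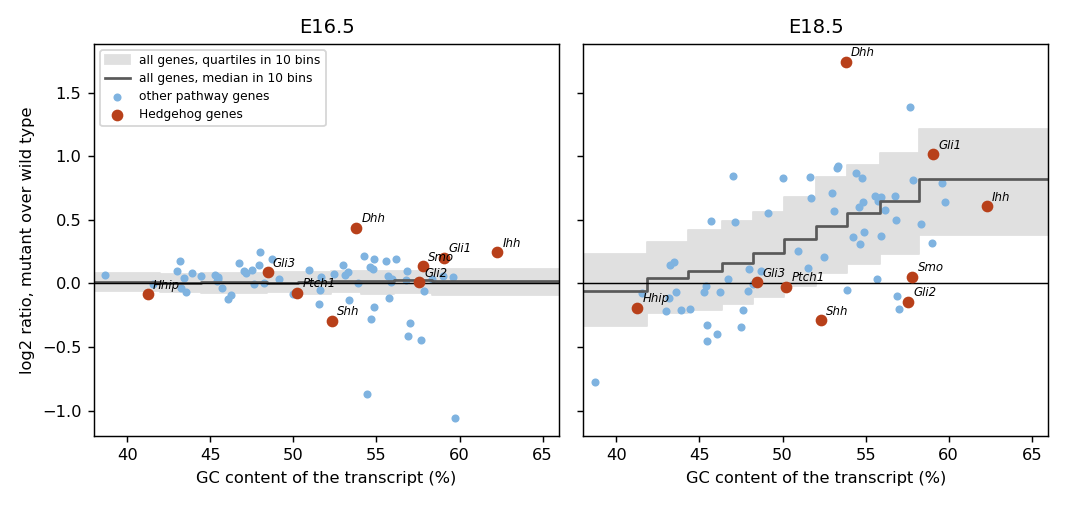
Log2 ratio of Tbx18Gfp/Gfp to wild type FPKM against the GC content of the transcript at E16.5 (left) and E18.5 (right), with red points for the Hedgehog genes, blue points for other pathway genes, and steps and grey band for the median and quartiles of all genes in 10 GC bins. The bins hold genes at 1 FPKM or more in both libraries compared. The median line is flat at E16.5 and climbs from -0.063 to 0.82 at E18.5. There Gli1 lies near it, Dhh above it and the other Hedgehog genes below it.

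Between the stages, mutant UGS changed little. From E16.5 to E18.5 its log2 ratios lay between -0.28 for *Gli1* and 0.21 for *Dhh* among the 8 genes at 1 FPKM or more, and none reached 1.5-fold, beside 4.68% of 14713 genes. In wild type UGS, *Gli1* was 2.13-fold lower at E18.5 than at E16.5 (log2 ratio -1.09), in a comparison in which 35.9% of all genes were at least 1.5-fold lower. The other 6 genes that passed lay between -0.21 for *Ptch1* and 0.24 for *Hhip* as deposited. With the trend on GC content and length subtracted, *Gli1* gave -0.27. *Smo* (0.66) and *Gli2* (0.59) were then at least 1.5-fold higher at E18.5, 2 of 7 genes or 28.6%, beside 14% of all genes. More widely, 28.5% of the 15023 genes with 1 FPKM or more in any library were at least 1.5-fold lower in E18.5 wild type than in every other library, as were *Gli1* and *Dhh*.

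Upstream of the receptor, genes for co-receptors and for the modification and release of ligand showed no 1.5-fold difference at E16.5. Of 11 listed genes, 9 reached 1 FPKM. *Disp1*, which releases lipid-modified ligand from the cell, was listed at 0 in all 4 libraries, and *Lrp2* stayed below 1 FPKM. The co-receptors *Gas1*, *Cdon* and *Boc*, which help *Ptch1* bind ligand, had log2 ratios of 0.032, 0.19 and 0.035 at E16.5 and of 0.46, 0.096 and 0.37 at E18.5. The outermost values at E16.5 were 0.25 for the glypican *Gpc3* and 0.19 for *Scube3* on one side and -0.41 for *Scube1* and -0.28 for *Disp2* on the other. At E18.5, 1 of the 9 genes was at least 1.5-fold higher in mutant UGS, or 11.1% beside 33.2% of all genes. It was *Hhat* (0.92), whose product attaches palmitate to the ligand, and *Scube3* (0.57) came next. *Scube1* (-0.10) and *Cdon* (0.096) were lowest. None of the 9 exceeded 1.5-fold when the E18.5 mutant library was set against E16.5 wild type.

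Of 16 regulators of GLI processing, again none differed 1.5-fold at E16.5, where log2 ratios ran from -0.19 for the protein kinase A subunit *Prkaca* and -0.12 for *Gsk3b* to 0.096 for *Evc* and 0.21 for *Stk36*. At E18.5, 7 of the 16 were at least 1.5-fold higher in mutant UGS and none was lower, which is 43.8% beside 33.2% of all genes. They included *Sufu* (0.65), which holds GLI proteins in the cytoplasm, the ciliary kinesin *Kif7* (0.79), *Spop* (0.84), an adaptor for GLI breakdown, and the ciliary receptor *Gpr161* (0.83). The kinase *Gsk3b* (-0.40) and *Btrc* (-0.071), an adaptor for GLI processing, were lowest. *Sufu* measured 10.6 FPKM in E16.5 wild type, 9.78 in E16.5 mutant, 5.53 in E18.5 wild type and 8.68 in E18.5 mutant UGS, again with E18.5 wild type below the rest. With the GC and length trend subtracted 2 of the 16 were higher and 1 lower, and without the E18.5 wild type library none exceeded 1.5-fold.

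Genes of the primary cilium, in which *Smo* and the GLI proteins meet, gave a similar picture. At E16.5 the 24 genes lay between -0.050 (*Kif3c*) and 0.19 (*B9d1*), with *Kif3a* (-0.0019) and *Tctn1* (0.17) next to these. At E18.5, 7 were at least 1.5-fold higher in mutant UGS, or 29.2%, and 1 was lower, or 4.17%, beside 33.2% and 7.6% of all genes. *Ift172* (0.91), of the intraflagellar transport complex, and *Kif3c* (0.83), of the kinesin family, were the highest. *Cep290* (-0.77), of the transition zone, and *Ift57* (-0.45) were the lowest. *Cep290* has 38.7% GC and *Ift172* 53.3%. None of the 24 exceeded 1.5-fold without the E18.5 wild type library.

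Mesenchymal genes that respond to Hedgehog in gut or urogenital tissue were, among the pathway lists, the only one with 1.5-fold differences at E16.5. *Foxf1a*, the name used here for the forkhead gene *Foxf1*, measured 17.0 FPKM in E16.5 wild type, 9.29 in E16.5 mutant, 7.02 in E18.5 wild type and 12.8 in E18.5 mutant UGS. *Foxf2*, its paralog, measured 21.1, 10.2, 6.05 and 9.41 FPKM. For both genes E16.5 wild type was the highest library and E18.5 wild type the lowest. They were lower in mutant UGS at E16.5, with log2 ratios of -0.87 and -1.06, and higher at E18.5, with 0.87 and 0.64. They made up 2 of the 11 genes found, or 18.2%, beside 2.72% of all genes that were 1.5-fold lower. This list was chosen with earlier results of these data known, so the share does not measure an excess. *Foxf2* was also lower in E18.5 mutant UGS than in E16.5 wild type, at -1.17, and *Foxf1a* gave -0.41 in that comparison. With the trend subtracted the E18.5 values were 0.29 for *Foxf1a* and -0.20 for *Foxf2*. The summed level of 8 smooth muscle markers was 1160 FPKM in E16.5 wild type, 613 in E16.5 mutant, 1338 in E18.5 wild type and 3656 in E18.5 mutant UGS. At E16.5, 7 of these 8 markers were at least 1.5-fold lower in mutant UGS, or 87.5% beside 2.72% of all genes. The summed level was lower in mutant UGS at E16.5 and higher at E18.5, as were both *Foxf* genes, and its part in their levels was not tested.

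*Foxl1*, another forkhead gene, measured 4.53, 3.32, 1.17 and 3.06 FPKM in E16.5 wild type, E16.5 mutant, E18.5 wild type and E18.5 mutant UGS, with a log2 ratio of -0.45 at E16.5 and 1.39 at E18.5. *Bmp4*, a growth factor of UGS mesenchyme, measured 36.6, 38.5, 27.7 and 32.01 FPKM, and its log2 ratio was 0.073 for E16.5 and 0.21 for E18.5. *Wnt5a* gave 0.16 and 0.034, and *Mycn* gave 0.11 and 0.83. *Osr1* (-0.20), *Bcl2* (-0.066) and *Nr2f2* (-0.065) were the only targets below 0 at E18.5. At that stage 4 of the 11 genes were at least 1.5-fold higher in mutant UGS, or 36.4% beside 33.2% of all genes, namely *Foxl1*, *Foxf1a*, *Mycn* and *Foxf2*. The median log2 ratio was 0.067 for E16.5 and 0.25 for E18.5, and -0.32 for E18.5 mutant against E16.5 wild type, where *Foxf2* alone exceeded 1.5-fold and all 11 genes lay below 0.

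**Figure D5:**
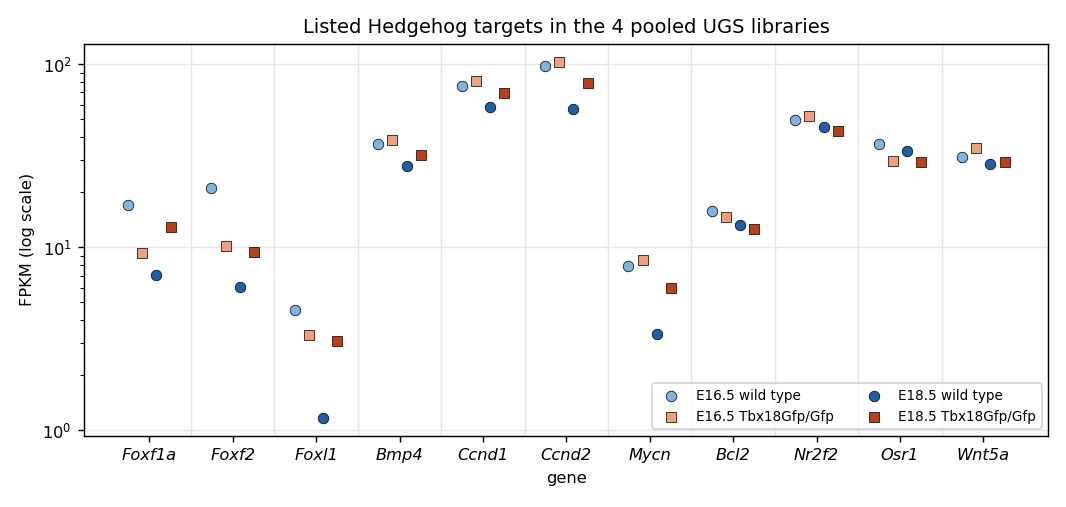
FPKM (log scale) of the 11 listed Hedgehog target genes in the 4 pooled libraries, with circles for wild type, squares for Tbx18Gfp/Gfp, light colours for E16.5 and dark colours for E18.5. Foxf1a and Foxf2 lie at 17.0 and 21.1 FPKM in E16.5 wild type and at 9.29 and 10.2 in E16.5 mutant UGS, while Bmp4, Ccnd1 and Wnt5a stay close together.

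The genes whose pattern over the 4 libraries was nearest to that of 3 members were sought among 13613 genes with 1 FPKM or more in every library, by the distance between log2 FPKM centred on each gene's own mean. Nearest to *Shh* were *Gucy1a3*, *Gm2808* and *Gm2710*, nearest to *Ptch1* were *Rps6ka6*, *Aqr* and *Mpv17l*, and nearest to *Gli1* were *Coq2*, *Tpra1* and *Hpn*, all at distances of 0.051 or less. *Coq2*, an enzyme of ubiquinone synthesis, measured 16.2, 18.47, 7.56 and 14.9 FPKM, a pattern like that of *Gli1* over the libraries. Within a distance of 0.1 there were 30 genes for *Shh*, 245 for *Ptch1* and 68 for *Gli1*, so each of these patterns was shared with other genes.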

How the data were processed

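Whole urogenital sinuses of male embryos were sequenced as 4 libraries, 1 for each genotype and stage, each from RNA pooled from 3 embryos. Libraries were stranded and reads single-end. The authors aligned reads with Tophat 2.1.0 at default options and estimated expression with Cufflinks 2.2.1, and the deposited values are FPKM, 1 column per library, with no column of other samples. The submitters' processing notes also name CASAVA 1.8.2 and Trimmomatic 0.30. The genome build is not given in the sources used here, and no positions are printed.

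Ratios of FPKM were formed without a pseudocount where either of the libraries compared reached 1 FPKM, and were counted at 1.5-fold and 2-fold. Mapped reads were estimated from the FPKM of olfactory receptor genes holding a single read (17 to 28 genes per library), and 95% intervals of ratios from the reads this implies. These cover counting error only. Transcript length and GC content were taken from GENCODE M21 by symbol for 23076 rows, including 93.7% of those that reached 1 FPKM anywhere. As an alternative, the dependence of log2 ratios on both properties was smoothed by lowess (span 0.3) and removed. It was fitted, and the GC bins were formed, over genes at 1 FPKM or more in both libraries compared. Other alternatives were equal library sums, median centring, upper quartile scaling, pseudocounts of 0.1 and 1, no minimum or a minimum of 5 FPKM, repeated symbols left out, and E16.5 wild type as the reference for E18.5. The steps were tested on simulated data in which the true ratios were set. Python 3.11.15, numpy 2.4.6, pandas 2.3.3, scipy 1.17.1 and statsmodels 0.14.6 were used.

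The 9 genes and the lists of pathway genes and cell type markers were chosen with earlier results of these data known. All 9 genes are named. From each pathway list, genes differing at least 1.5-fold at either stage could be named, and the 2 highest and 2 lowest ratios at each stage were to be named. *Cdon*, *Boc*, *Gas1*, *Bmp4* and *Ccnd1* were added for their roles, with their values known. For *Shh*, *Ptch1* and *Gli1* the 3 genes nearest in pattern are named. Some pathway genes are not reported here and are left out of the lists and their counts.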

Additional observations from a re-analysis of the deposited data

Results flagged for a closer look

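*Foxf1a* and *Foxf2* moved in opposite directions at the 2 stages, lower in mutant UGS at E16.5 and higher at E18.5. The log2 ratio at E18.5 minus that at E16.5 was 1.74 for *Foxf1a* and 1.70 for *Foxf2*. With 1 pooled library per genotype and stage the difference between stages was not tested. It includes the E18.5 wild type library, which stood apart, and for *Foxf2* the E18.5 ratio turned from 0.64 to -0.20 when the trend on GC content and length was removed.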

How the results depend on the processing

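No paired analysis was possible because each genotype and stage has 1 library, and for the same reason no library could be left out within a group. At E16.5 none of the members reached 1.5-fold under any alternative, and their median log2 ratio of 0.049 became -0.057 with library sums made equal. At E18.5 the median of -0.0072 became -0.43 with library sums made equal, -0.30 when centred on the median of all genes and -0.31 with upper quartile scaling. The 2 members past 1.5-fold at E18.5 became 4 with library sums made equal (*Shh*, *Dhh*, *Gli1* and *Hhip*), 4 with the length and GC trend subtracted (*Shh*, *Dhh*, *Smo* and *Gli2*), 3 with upper quartile scaling (*Shh*, *Dhh* and *Gli1*), 3 with no minimum (*Ihh*, *Dhh* and *Gli1*), 1 with a minimum of 5 FPKM (*Gli1*) and 1 against E16.5 wild type (*Dhh*), where *Gli1* turned from 1.01 to -0.076. Of the 63 E18.5 ratios of single members under an alternative, 35 moved outside the counting interval of the deposited ratio. A further 1, that of *Gli1*, reversed, where a change of sign was counted only for members past 1.5-fold. Of the 54 ratios at E16.5, 7 moved, and no member there was past 1.5-fold, so no reversal could be counted. Smaller ratios did change sign. *Smo* at E18.5 went from 0.053 to -0.59 with the trend subtracted. *Gli2* at E16.5 went from 0.011 to -0.095 with library sums made equal. In alternatives chosen after seeing the data, the counts past 1.5-fold at E18.5 went from 1 to 1 with the trend subtracted and 0 against E16.5 wild type for co-receptors and ligand release, from 7 to 3 and 0 for GLI regulators, from 8 to 2 and 0 for cilium genes, and from 4 to 2 and 1 for targets. The 1 co-receptor or release gene was not the same. It was *Hhat*, higher in mutant UGS, as deposited. With the trend subtracted *Hhat* fell to 0.42 and the gene was *Scube1*, lower at -0.60. Depth limited *Ihh* and *Dhh*, with about 24 and 51 reads in E18.5 wild type.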
